A study of Mus musculus with 12 samples.

Results

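Myelin and mature oligodendrocyte genes were followed in RNA sequenced from the striatum and prefrontal cortex of C57BL/6J mice, all taken at postnatal day 24. The set was chosen by symbol and holds 9 of the 21872 symbols in the count table: Mbp, Mog, Mag, Mobp, Cnp, Trf, Hapln2, Ermn and Opalin. It was compared in 4 groups of 3 libraries: striatum of mice given 6-hydroxydopamine (6-OHDA), striatum of control mice, prefrontal cortex of mice given 6-OHDA, and prefrontal cortex of control mice. 6-OHDA is a toxin taken up by dopamine neurons, and the series uses it after birth as a mouse model of attention-deficit/hyperactivity disorder. The labels name the treated animals only by the model and the others only as controls, so dose, route, day of treatment and what the controls received are not stated. All animals carried the same strain background and no allele is named. Whether the 3 libraries within a group are 3 animals is not labelled, and each p-value therefore measures a spread between libraries that may be technical.

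Oligodendrocytes wrap axons of the central nervous system in myelin, a stack of lipid-rich membranes that speeds conduction. In mice this wrapping proceeds through the first weeks of life and is still under way at weaning, and it is denser in the fibre bundles that cross the striatum than in cortical grey matter. Mbp (myelin basic protein) and Mobp (myelin-associated oligodendrocytic basic protein) hold the inner faces of compact myelin together. Mog sits on the outermost myelin surface and Mag on the membrane next to the axon. Cnp encodes the cyclic nucleotide phosphodiesterase of the uncompacted channels. Ermn encodes ermin, a cytoskeletal protein that appears late in oligodendrocyte maturation, and Opalin a glycosylated membrane protein of oligodendrocytes. Hapln2 encodes a link protein that binds hyaluronan at nodes of Ranvier. Trf encodes transferrin, the iron carrier, which oligodendrocytes and choroid plexus make in the brain.

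Promoter sequence was available in RefSeq's table (GRCm38.p6) for 7 of the 9 genes, and 4 are shown as examples of promoters that hold recognition words of the oligodendrocyte regulators Sox10 and Myrf: both words in Mag, the SOX word alone in Mobp and Opalin, and the Myrf word alone in Mog. Each line runs 5′ to 3′ on the gene's own strand and ends at the last base before the first annotated transcript start. Capitals mark the letters ACAAAG, a word bound by SOX factors, or CTGGNAC, a Myrf-type word, on either strand. N was allowed to be any base, so a match need not be a word that Myrf binds.
Mag: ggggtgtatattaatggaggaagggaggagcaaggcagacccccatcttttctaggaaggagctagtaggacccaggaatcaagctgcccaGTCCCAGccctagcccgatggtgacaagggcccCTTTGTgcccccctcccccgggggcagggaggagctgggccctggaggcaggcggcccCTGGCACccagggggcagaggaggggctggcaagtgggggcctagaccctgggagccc
Mobp: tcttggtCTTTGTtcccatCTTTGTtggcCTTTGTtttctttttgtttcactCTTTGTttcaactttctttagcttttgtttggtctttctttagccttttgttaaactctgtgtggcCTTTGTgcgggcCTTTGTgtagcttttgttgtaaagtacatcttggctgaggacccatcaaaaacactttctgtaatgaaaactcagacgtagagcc
Mog: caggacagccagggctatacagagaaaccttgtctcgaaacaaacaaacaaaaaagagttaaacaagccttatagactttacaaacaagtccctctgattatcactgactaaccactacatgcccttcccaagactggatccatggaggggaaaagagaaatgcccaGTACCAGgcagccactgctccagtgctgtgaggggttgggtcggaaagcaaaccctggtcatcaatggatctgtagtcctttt
Opalin: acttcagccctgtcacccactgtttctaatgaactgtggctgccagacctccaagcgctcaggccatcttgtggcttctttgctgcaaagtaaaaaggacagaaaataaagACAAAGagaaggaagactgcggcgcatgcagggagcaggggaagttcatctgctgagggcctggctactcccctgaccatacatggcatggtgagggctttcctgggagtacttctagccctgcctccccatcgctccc
The Mag stretch is chr7:30914874-30915113 on the minus strand and the Mobp stretch chr9:120149492-120149706 on the plus strand. The Mog stretch is chr17:37023399-37023648 on the minus strand and the Opalin stretch chr19:41077114-41077363 on the minus strand. Ermn, not shown, held neither word. The SOX word occurred in 4 of the 7 promoters and in 16.5% of 32851 promoter windows of 250 bases, and Mobp held 6 copies. The Myrf word occurred in 4 of the 7 as well, against 16.1% of all windows, with 2 matches in Mag and 1 in Mog. CANNTG, the E-box bound by Olig2 among many other factors, occurred in 4 of the 7 and in 66.2% of all windows. All words were searched on both strands, and the capitalised matches did not share bases with each other. Mag has 3 windows in the table, of which the first was used. These matches describe the letters only.

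Total counts were 15078631 to 20925452 per library, and all 9 genes passed the filter on low counts in every comparison. The lowest count of any of the 9 was 105, for Hapln2 in a control prefrontal library, and the highest was 145116, for Mbp in a 6-OHDA striatal library. Together the 9 genes took 0.935% to 1.51% of all counts in 6-OHDA striatum and 0.99955% to 1.28% in control striatum. In prefrontal cortex they took 0.341% to 0.441% in 6-OHDA libraries and 0.402% to 0.564% in controls. The region labels were checked against markers. Summed levels of 15 striatal projection neuron markers were 5709 to 13948 CPM (counts scaled to a common library size by TMM, the trimmed mean of M-values) in 6-OHDA striatum and 2958 to 4510 in control striatum, against 879.8 to 1142 in 6-OHDA cortex and 940.0 to 1674 in control cortex. The 10 cortical excitatory markers summed to 223 to 457 CPM in 6-OHDA striatum and 164 to 992 in control striatum, against 2870.3 to 3028 and 2952 to 3102 in 6-OHDA and control cortex. Striatal libraries therefore differed in how much cortical and striatal transcript they held.

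Within a group the 9 genes went up and down together. In the 6-OHDA striatal library with the number 2, all 9 lay above their group mean, by 0.27 to 0.39 on the log2 scale. In library 3 of that group all 9 lay below it, by 0.26 to 0.37, and in library 1 they lay between -0.08 and 0.01. In controls, all 9 were above the group mean in striatal library 3 and in prefrontal library 3. After subtraction of group means, the 36 pairs of genes had a median Pearson correlation of 0.97 over the 12 libraries, with 0.52 for Ermn and Hapln2 as the lowest and 0.995 as the highest. Points of this kind share a library and its depth, so the correlation is a description. Hapln2 was the least tied to the rest, with a correlation of 0.63 to the mean of the other 8 genes, against 0.95 to 0.99 for each of the others. Hapln2 was also the lowest in counts in prefrontal cortex, at 105 to 217 per library.

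**Figure D1:**
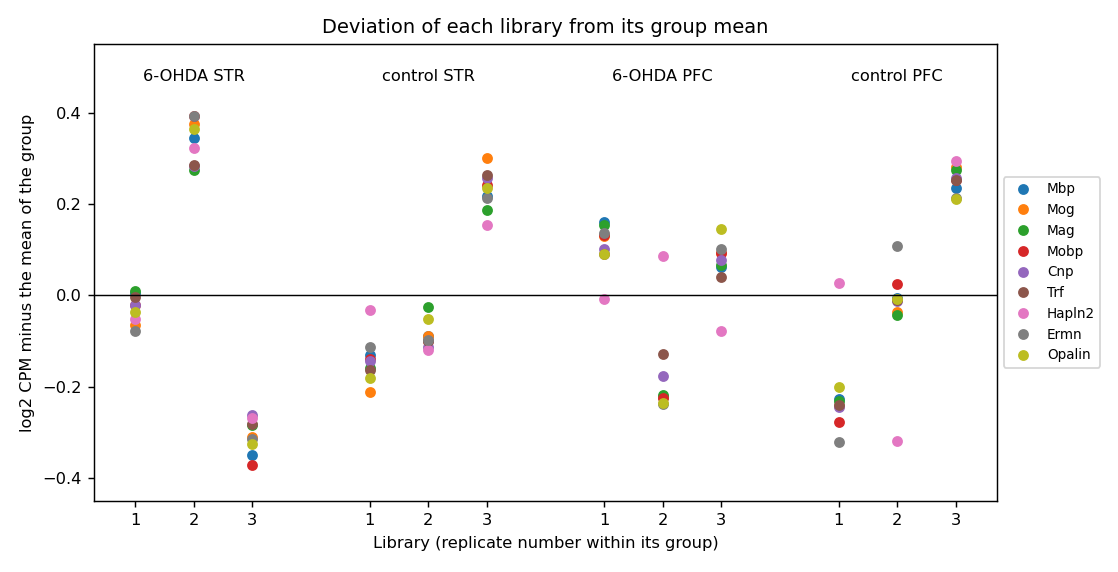
Deviation of log2 CPM from the mean of its group (vertical axis) for each of the 9 genes in each library (horizontal axis, replicate number within its group); each colour is 1 gene. The points of a library cluster: all 9 lie above 0 in 6-OHDA striatal library 2 and below 0 in library 3, while Hapln2 leaves the cluster in several prefrontal libraries.

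The genes on none of the gene lists whose within-group deviations were most like the mean of the 9 were sought among 10098 genes of at least 10 CPM on average. The closest was Erbb3, a neuregulin receptor, with a Pearson correlation of 0.99 over the 12 libraries. It was followed by Frmd8, Rnf13, Prkcq, the glycolipid transfer protein gene Gltp, Golga7, the microtubule gene Slain1 and the netrin receptor gene Unc5b, at 0.96 to 0.97. Without subtraction of group means the 8 correlations were 0.70, for Golga7, to 0.99, for Unc5b.

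Every one of the 9 genes was higher in striatum than in prefrontal cortex, in mice given 6-OHDA and in controls. In 6-OHDA mice the fold was 2.57 for Opalin to 2.98 for Trf. Among controls it was 1.999 for Mog to 2.26 for Mag. Mbp had 4854 to 7852 CPM in 6-OHDA striatum, against 2006 to 2614 CPM in 6-OHDA cortex. In controls it had 5584 to 7108 CPM in striatum, against 2569.6 to 3539.9 CPM in cortex. No striatal library reached down to a cortical library of the same treatment for any of the 9. Over all genes tested, striatal libraries lay wholly above cortical ones for 29.7% after 6-OHDA and for 27.5% in controls.

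After 6-OHDA edgeR's quasi-likelihood test called 9 of 9 genes higher in striatum, against 22.7% of the 14206 genes tested. The median log2 fold change of the 9 was 1.48, against 0.02 over all genes tested. Trf, for example, was at 1.57 (SE 0.14, adjusted p = 1.26e-04) and Opalin at 1.36 (SE 0.18, adjusted p = 7.44e-04). In controls 9 of 9 were again called higher in striatum, against 21.3% of 14239 genes, and their median was 1.08, against 0.02 over all genes. Mag was at 1.17 (SE 0.14, adjusted p = 3.41e-04) and Mog at 0.999 (SE 0.16, adjusted p = 0.0017). These calls held without any 1 library and in each other setting tried. In bulk tissue, more oligodendrocytes and more RNA per oligodendrocyte cannot be told apart.

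**Figure D2:**
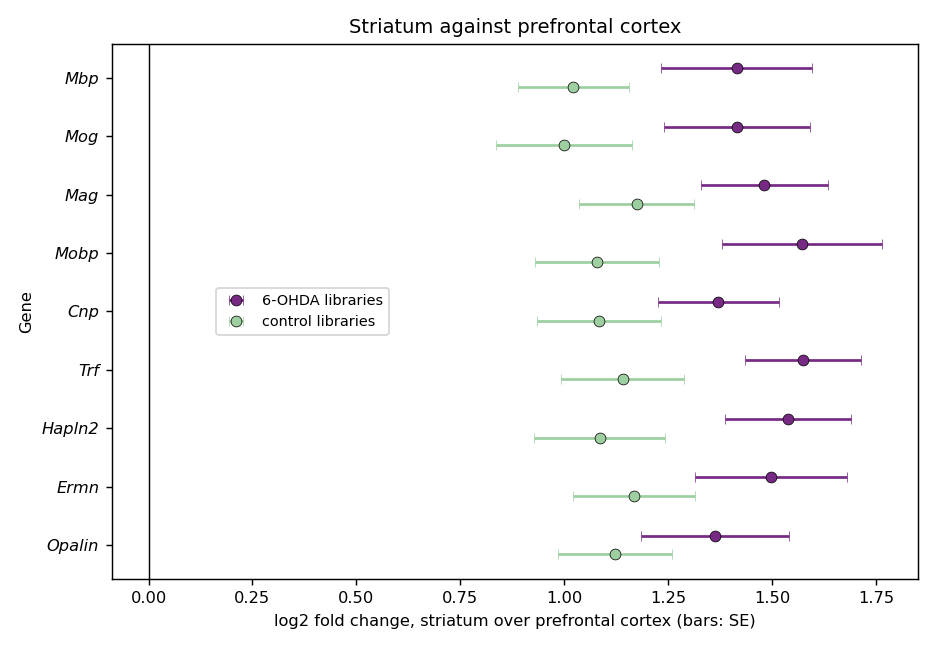
Log2 fold change of striatum over prefrontal cortex (horizontal axis; bars are standard errors) for the 9 genes, in 6-OHDA libraries (purple, 3 against 3) and control libraries (green, 3 against 3). The 9 genes lie between 1.36 and 1.57 in 6-OHDA libraries and between 0.999 and 1.17 in controls.

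Most other oligodendrocyte genes were higher in striatum too, by lists chosen with earlier results of these data known. Of 18 other myelin proteins 16 were called higher and 2 lower in each treatment, the lower ones being Tppp (-0.51, SE 0.08, after 6-OHDA and -0.53, SE 0.08, in controls) and Omg (-0.32, SE 0.07, after 6-OHDA and -0.47, SE 0.07, in controls). Of 19 further genes of mature oligodendrocytes 18 were called higher after 6-OHDA and 17 in controls, and 1 was lower in each, Pex5l, at -1.11 (SE 0.11) after 6-OHDA and -1.29 (SE 0.14) in controls. All 11 oligodendrocyte transcription factors were called higher in striatum after 6-OHDA (median log2 fold change 1.004), with Sox10 at 1.21 (SE 0.12) and Myrf at 1.44 (SE 0.16). All 11 were called in controls as well (median 0.91), among them Olig2 (0.91, SE 0.09), Sox10 (0.90, SE 0.10), Myrf (1.16, SE 0.16) and Tcf7l2 (1.94, SE 0.16), which acts in differentiating oligodendrocytes and is also strong in thalamic neurons. Of 9 myelin lipid enzymes 7 were called higher in striatum and 0 lower in each treatment, among them in controls the ceramide synthase gene Cers2 (0.87, SE 0.11) and the fatty acid hydroxylase gene Fa2h (1.13, SE 0.15). Of 18 precursor and committed-cell genes 13 were called higher in striatum and 1 lower after 6-OHDA, with a median of 0.51, and 16 higher and 0 lower in controls, with a median of 0.48. The precursor receptor gene Pdgfra was at 0.47 (SE 0.06) after 6-OHDA and at 0.43 (SE 0.07) in controls. Markers of bordering tissue differed in the same direction: 9 of 11 tested hypothalamic and basal forebrain genes were called higher in striatum after 6-OHDA, and 10 of 12 in controls. Their part in the regional difference was not tested.

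The levels of the 9 genes relative to each other were compared per kilobase of annotated exon (GENCODE M21). In 6-OHDA striatum Mbp averaged 744 ± 177 CPM per kilobase (SD, n = 3), followed by Mobp at 378 ± 100.3, Cnp at 299.7 ± 57.2, Trf at 175 ± 34.3, Mag at 133 ± 25.5 and Mog at 131 ± 32.2. Ermn stood at 36.6 ± 9.43, Opalin at 18.1 ± 4.41 and Hapln2 at 14.1 ± 2.99 CPM per kilobase. For the steps from Mobp to Cnp, from Trf to Mag, from Mag to Mog and from Opalin to Hapln2 the library ranges overlapped. The SDs do not measure the spread of a step, because the genes moved together between libraries. Within every library of this group Mobp stood above Cnp, Trf above Mag and Opalin above Hapln2, while Mag and Mog changed order. In control striatum the order was Mbp at 726 ± 98.8 CPM per kilobase, Mobp at 316 ± 47.8, Cnp at 258 ± 41.4, Mag at 106 ± 12.9, Mog at 104 ± 19.9 and Trf at 77.8 ± 12.9. The mean of Trf was above those of Mag and Mog after 6-OHDA and below them in controls. The same held in prefrontal cortex, where Trf averaged 58.6 ± 4.57 CPM per kilobase in 6-OHDA libraries, against Mog at 48.7 ± 6.31 and Mag at 47.3 ± 6.18. In control cortex Trf averaged 35.5 ± 6.06 CPM per kilobase, Mog 52.0 ± 9.66 and Mag 47.2 ± 8.54. The transcript forms that were expressed could differ from the annotated exons, which would change these levels. For Trf, 63.5% of the exon bases are shared with Gm20425, an annotated gene on the same strand, and the assignment of reads there is not stated, so its place among the genes is uncertain.

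**Figure D3:**
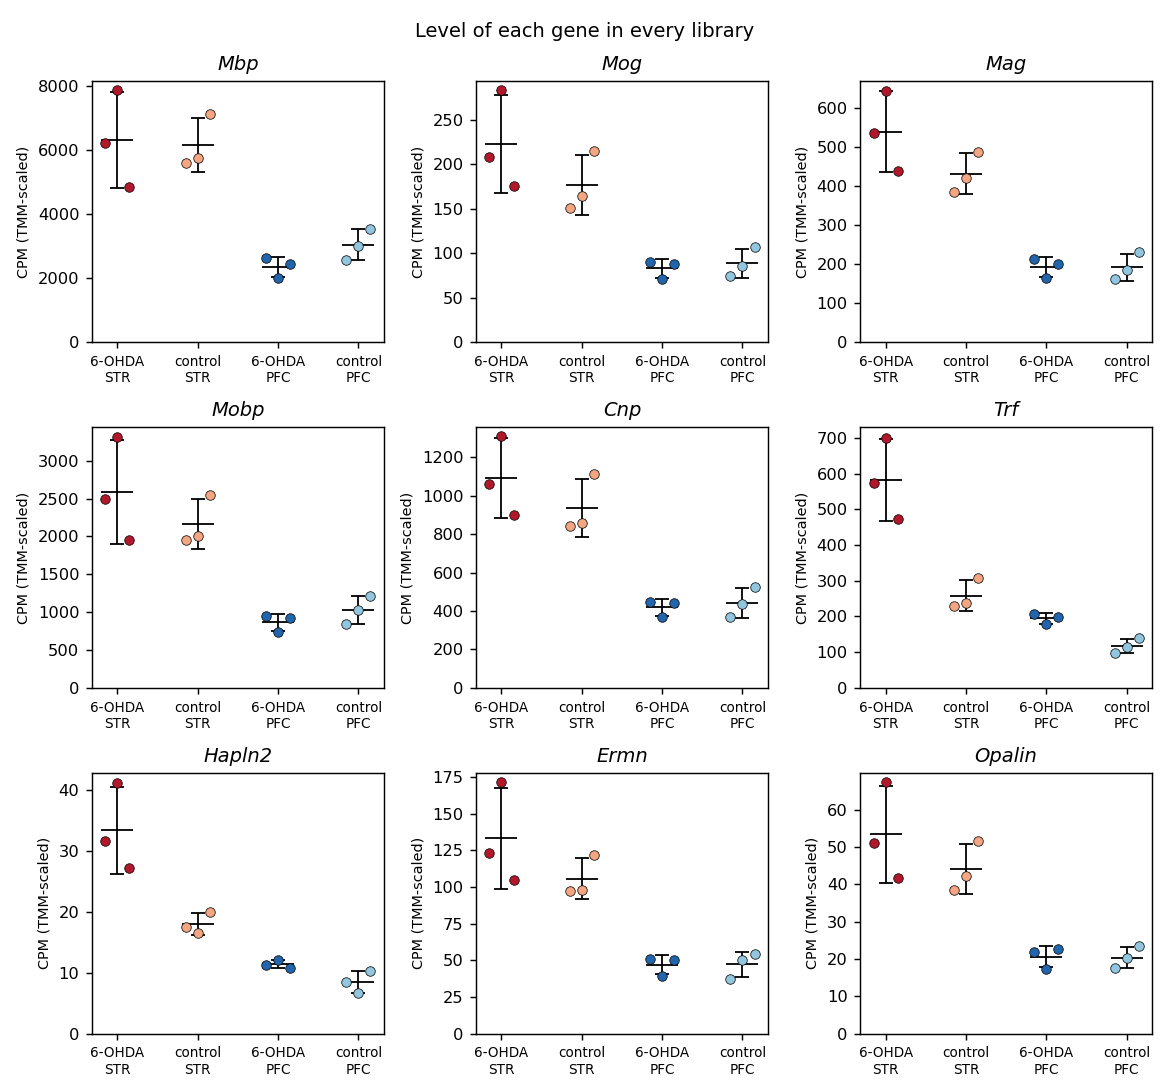
TMM-scaled CPM (vertical axis, from 0) of the 9 genes in each of the 12 libraries (points), with the mean and SD of each group of 3 (bars), in 6-OHDA striatum (STR), control STR, 6-OHDA prefrontal cortex (PFC) and control PFC. The 6-OHDA points lie above all control points of the same region for Trf and Hapln2 and overlap them for the other 7 genes.

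Against controls, transferrin was the gene of the set that changed most. In prefrontal cortex Trf had 207, 178 and 199.6 CPM in the 6-OHDA libraries, against 98.7, 116 and 139 CPM in the controls. The 6-OHDA libraries all lay above the controls. Trf rose 1.66-fold there (log2 fold change 0.73, SE 0.09, adjusted p = 0.00106). In striatum Trf had 574, 700.5 and 473 CPM in the 6-OHDA libraries, against 229, 239 and 308 CPM in the controls. The groups were again apart and the fold was larger, 2.24 (log2 fold change 1.17, SE 0.17), but the adjusted p of 0.0957 did not pass the threshold of 0.05 in this region, where libraries varied more. The biological coefficient of variation was 14.9% in striatum and 5.78% in prefrontal cortex. Trf lies on chromosome 9 at 103204001 to 103230444 on the minus strand (GRCm38).

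Choroid plexus makes transferrin as well, so its markers are given beside Trf. The 10 choroid plexus and ependymal genes summed to 56.7 to 83.01 CPM in 6-OHDA striatum and 92.8 to 2155 CPM in control striatum. Control striatal library 2, at 2155 CPM, had 239 CPM of Trf, between the other controls. In prefrontal cortex they summed to 14.2, 43.1 and 14.4 CPM in the 6-OHDA libraries and 11.01 to 16.1 CPM in controls. The 6-OHDA cortical library at 43.1 CPM had 178 CPM of Trf, the lowest of its group. After 6-OHDA the range was lower in striatum, and in cortex it overlapped the controls except for that library. Trf was higher in both regions, and the part of choroid plexus in Trf was not tested.

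Hapln2 had the next largest fold in both regions. In striatum it had 31.7, 41.1 and 27.2 CPM in the 6-OHDA libraries, against 17.5, 16.5 and 19.9 CPM in the controls. In prefrontal cortex it had 11.4, 12.1 and 10.8 CPM in the 6-OHDA libraries, against 8.53, 6.69 and 10.3 CPM in the controls. In each region the 6-OHDA libraries lay above the controls. The log2 fold change was 0.89 (SE 0.16, adjusted p = 0.135) in striatum and 0.43 (SE 0.14, adjusted p = 0.0949) in prefrontal cortex, and neither passed. Of the 9 genes, Trf and Hapln2 were those with 6-OHDA libraries wholly above the controls, 2 of 9 in each region. Over all genes tested, the 6-OHDA libraries lay wholly above the controls for 13.5% in striatum and 13.0% in prefrontal cortex. Hapln2 lies on chromosome 3 at 88021750 to 88027583 on the minus strand.

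Mbp went the other way in prefrontal cortex. It had 2614, 2006 and 2441 CPM in the 6-OHDA libraries, against 2569.6, 2996 and 3539.9 CPM in the controls, and 1 library of each group overlapped. Mbp fell by 0.37 on the log2 scale there (SE 0.10, adjusted p = 0.0473), and the call is at the edge of the threshold. Without 6-OHDA library 2 or control library 3 the adjusted p was 0.216 or 0.149, and without 6-OHDA library 3 or control library 2 it was 0.1204 or 0.0604. Mobp, its relative in compact myelin, was at -0.25 (SE 0.11, adjusted p = 0.213). In striatum Mbp averaged 6304 ± 1502 CPM in 6-OHDA libraries and 6146 ± 837 CPM in controls (SD, n = 3 each). The striatal log2 fold change was 0.03 (SE 0.19), and its adjusted p was 0.945.

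The other genes of the set stayed within the spread of the libraries. In prefrontal cortex Mog, Mag, Cnp, Ermn and Opalin had log2 fold changes between -0.09 and 0.03, with standard errors of 0.10 to 0.12. Mag, for example, averaged 193 ± 25.2 CPM in 6-OHDA cortex and 192 ± 34.8 CPM in control cortex. In striatum these 5 genes had log2 fold changes of 0.21 to 0.33 with standard errors of 0.16 to 0.20, and their libraries overlapped. Microglia markers had values in the same direction there: 9 of 10 had log2 fold changes above 0 with a median of 0.27 and 0 called, and they summed to 429 to 549.9 CPM in 6-OHDA striatum and 348 to 427 CPM in control striatum. Their part in the striatal values was not tested. The highest 6-OHDA striatal library was number 2 and the lowest number 3 for each of the 9 genes.

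By count, 2 of the 9 genes were called in prefrontal cortex, Trf higher and Mbp lower, against 5.73% of 14018 genes tested. The median log2 fold change of the 9 was -0.0015, against -0.0051 over all genes. In striatum edgeR called 0 of 9, against 0.0280% of 14288 genes, and 2 of 9 (Trf and Hapln2) had an unadjusted p below 0.05, as did 2475 of all genes. The median of the 9 was 0.32 there, against -0.0041 over all genes. The median of the 9 was 0.10 without 6-OHDA library 2 and 0.080 with limma-voom and sample weights, where Mbp (-0.24), Mobp (-0.03) and Cnp (-0.0054) had values below 0. DESeq2 called both Trf and Hapln2 higher in striatum, in a test that called 3.70% of all genes, and limma-voom with sample weights called Trf (2.18% of all genes). In prefrontal cortex DESeq2 and limma-voom each called Trf alone of the 9, in tests that called 6.02% and 7.53% of all genes. A single fit of all 12 libraries called Trf and Hapln2 in striatum (7.15% of all genes) and none of the 9 in prefrontal cortex (0.206%), where Trf then had an adjusted p of 0.106. Without 6-OHDA library 1 and control library 2, which stood apart in striatal and cortical markers, the striatal median was 0.30 and again 0 of 9 were called by edgeR. All 15 striatal projection neuron markers had striatal fold changes above 0, with a median of 1.26 on the log2 scale and 0 called, and their part in the striatal values was not tested.

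**Figure D4:**
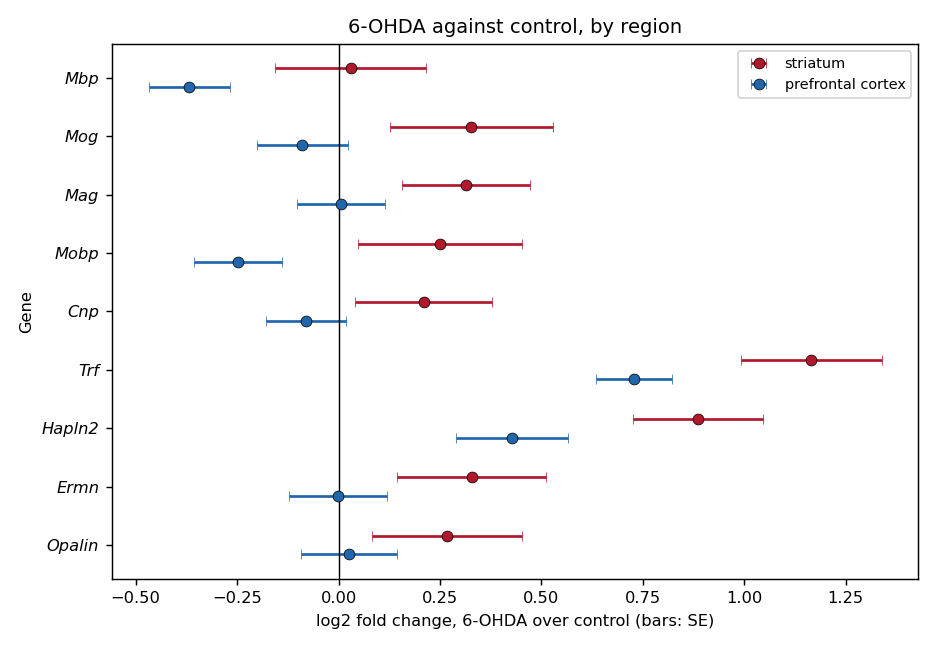
Log2 fold change of 6-OHDA over control (horizontal axis; bars are standard errors; 3 against 3 libraries) for the 9 genes, in striatum (red) and prefrontal cortex (blue). Trf lies at 1.17 and 0.73 and Hapln2 at 0.89 and 0.43, while Mbp is the lowest in each region.

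The effect of 6-OHDA was not shown to differ between the regions for any of the 9 genes. The difference, striatum minus prefrontal cortex, lay between 0.24 for Opalin and 0.49 for Mobp on the log2 scale, with standard errors of 0.22 to 0.26. For Trf it was 0.43 (SE 0.22, adjusted p = 0.472). The edgeR test called 0 of 9 genes, against 0.0825% of 14545, and 0 of the 9 had an unadjusted p below 0.05, against 1703 of all genes. DESeq2 and limma-voom called 0 of 9 each, against 0.798% and 0.591% of all genes. The median of the 9 differences was 0.39, against -0.0020 over all genes.

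Since the genes moved together between libraries, each was also set against Mbp, the most abundant of the 9, in the same library. This comparison was chosen after the data were seen. A ratio of counts within a library does not depend on depth or on the share of oligodendrocyte RNA, as long as that share moves both genes alike. It shows unequal change and not which of the genes changed, and Mbp itself was lower in 6-OHDA cortex. Mbp also had the lowest log2 fold change of the 9 in each region, 0.03 in striatum and -0.37 in cortex. Mean ratios above the controls for all the other genes therefore follow from the choice of Mbp, and nothing is read from their common direction.

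Relative to Mbp, Trf and Hapln2 stood above the other 6 genes in both regions. Mobp had the smallest difference in cortex (0.12 on the log2 scale of the ratio), with 36.8 ± 0.753 counts per 100 counts of Mbp in 6-OHDA libraries and 33.8 ± 1.001 in controls (SD, n = 3 each). In striatum Mobp had 40.9 ± 1.20 counts per 100 of Mbp in 6-OHDA libraries and 35.2 ± 0.499 in controls, a log2 difference of 0.22. Mog, Mag, Cnp, Ermn and Opalin had log2 differences between 6-OHDA and control ratios of 0.19 to 0.31 in striatum, a range that also holds Mobp, and of 0.28 to 0.38 in cortex.

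Mag is an example of these genes. It had 8.66, 8.22 and 9.03 counts per 100 of Mbp in 6-OHDA striatum, against 6.90, 7.35 and 6.88 in control striatum. In cortex it had 8.15, 8.20 and 8.22 in 6-OHDA libraries, against 6.30, 6.16 and 6.50 in controls. The 6-OHDA libraries lay above the controls of their region in both cases. Put the other way, Mbp counts were 11.6 ± 0.541 times those of Mag in 6-OHDA striatum and 14.2 ± 0.520 times in control striatum. In cortex they were 12.2 ± 0.0550 times those of Mag in 6-OHDA libraries and 15.8 ± 0.426 times in controls.

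Hapln2 and Trf had the largest ratios of 6-OHDA to control. Hapln2 had 0.511, 0.524 and 0.561 counts per 100 of Mbp in 6-OHDA striatum, against 0.313, 0.287 and 0.280 in control striatum. In cortex Hapln2 had 0.434, 0.605 and 0.443 in 6-OHDA libraries, against 0.332, 0.223 and 0.291 in controls. All 6-OHDA libraries were above the controls, by 0.86 in striatum and 0.81 in cortex in the mean log2 ratio. Trf had 9.24, 8.92 and 9.74 counts per 100 of Mbp in 6-OHDA striatum, against 4.10, 4.16 and 4.33 in control striatum. In cortex Trf had 7.91, 8.86 and 8.18 in 6-OHDA libraries, against 3.84, 3.86 and 3.92 in controls. No 6-OHDA library came near a control, and the Trf ratio differed by 1.15 in striatum and 1.10 in cortex on the log2 scale.

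All 8 ratios in striatum were higher in every 6-OHDA library than in every control, against 2.65% of all genes tested. In cortex this also held for 8 of 8, where it held for 34.9% of all genes. The 8 ratios share the Mbp count, and the genes move together between libraries, so they are not 8 separate observations. Genes that do not vary with Mbp can hardly separate where Mbp itself varies as in striatum, so nothing is read from these counts.

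**Figure D5:**
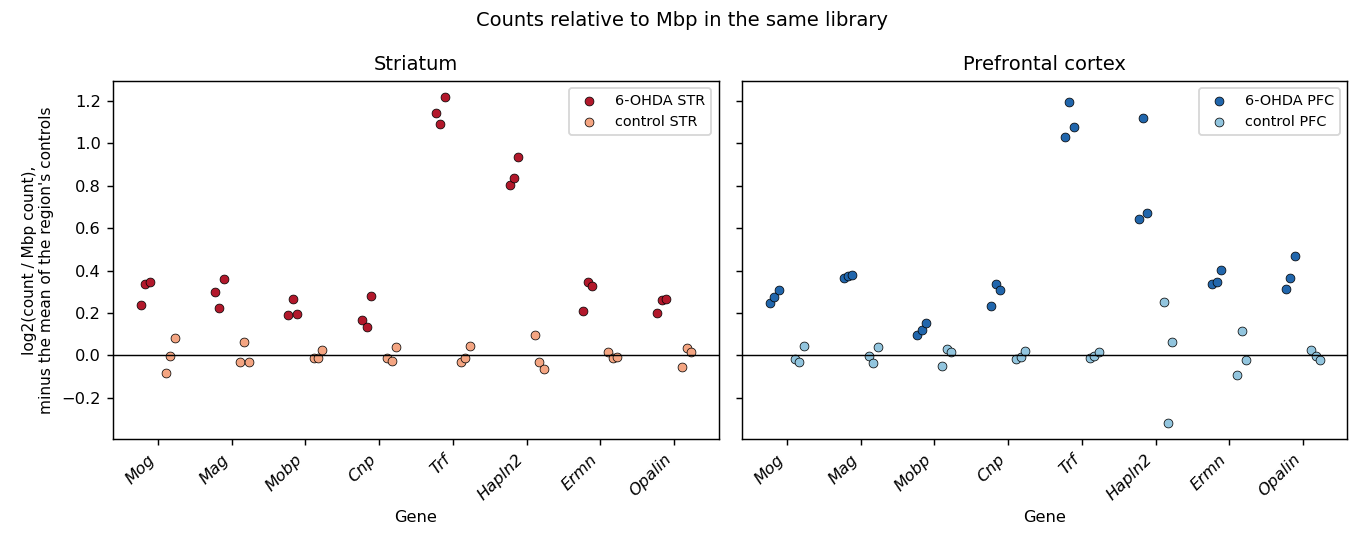
Log2 ratio of each gene's count to the Mbp count of the same library, minus the mean of the control libraries of the same region (vertical axis), for 6-OHDA (dark) and control (light) libraries of striatum (left) and prefrontal cortex (right). All 8 genes lie higher in 6-OHDA libraries than in controls of the same region, and Trf lies highest on average, at 1.15 in striatum and 1.10 in cortex. The common direction of the means follows from the choice of Mbp, which had the lowest fold change of the set in each region.

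Other oligodendrocyte genes were read from the lists named above. In prefrontal cortex none of 18 other myelin proteins and none of 9 myelin lipid enzymes was called by edgeR. DESeq2 called 1 of the genes named from these lists, Mpzl1, at -0.37 (adjusted p = 0.0338). Of 19 further genes of mature oligodendrocytes 1 rose and 1 fell: the interleukin gene Il33 (0.74, SE 0.16, adjusted p = 0.0176) and the deacetylase gene Sirt2, whose product is found in myelin (-0.37, SE 0.06, adjusted p = 0.0047). Il33 had 21.8, 29.1 and 25.9 CPM in 6-OHDA striatum, against 13.8, 16.4 and 16.8 CPM in control striatum, a difference of 0.70 on the log2 scale (SE 0.13, adjusted p = 0.144). Sirt2 was at -0.37 (SE 0.13, adjusted p = 0.240) in striatum. Among 11 transcription factors Olig2 fell (-0.34, SE 0.09, adjusted p = 0.0429) and Zfp536 rose (0.34, SE 0.09, adjusted p = 0.0364) in cortex. Sox10 was at -0.07 (SE 0.08) and Myrf, the factor that switches on myelin genes, at 0.07 (SE 0.12).

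Genes listed for precursors and newly committed oligodendrocytes mostly had fold changes below 0 in both regions. Of 18 tested in prefrontal cortex edgeR called 3 lower and 0 higher, against 319 lower and 484 higher of all 14018 genes. The 3 were Enpp6, a marker of newly forming oligodendrocytes (-0.61, SE 0.15, adjusted p = 0.0298), the lectican gene Bcan (-0.29, SE 0.07, adjusted p = 0.0229) and the kinase gene Fyn (-0.21, SE 0.05, adjusted p = 0.0239). Pdgfra (-0.18, SE 0.05, adjusted p = 0.0608), Gpr17 (-0.19, SE 0.09, adjusted p = 0.260) and Bcas1 (-0.26, SE 0.10, adjusted p = 0.145) were not called. Of the 18, 1 had a fold change above 0, against 48.4% of all genes. In striatum 0 of 18 were called by edgeR and 2 had a fold change above 0, against 49.3% of all genes. There Fyn was at -0.47 (SE 0.08, adjusted p = 0.135) and Gpr17 at -0.29 (SE 0.12, adjusted p = 0.280). Of 12 astrocyte markers 7 fell in prefrontal cortex and 0 rose, and they summed to 6072 to 6263 CPM in 6-OHDA cortex and 6805 to 7061 in control cortex. In striatum they summed to 5035 to 5940.1 CPM in 6-OHDA libraries and 5821 to 5944 CPM in controls. Meningeal fibroblast genes summed to 24.7 to 35.3 CPM in 6-OHDA striatum and 68.2 to 98.4 CPM in control striatum. The part of these differences in the values of the 9 genes and of the precursor list was not tested.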

How the data were processed

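The authors deposited raw read counts per gene symbol for the 12 libraries in 1 table. Stranded mRNA libraries were made from 500 ng of RNA (RIN at or above 8.9) and read as 101 bp pairs, per the labels' protocols. STAR 2.7.1a, featureCounts and the build mm10 are named in the submitters' processing notes, but no strand setting or annotation is stated. The 1830 genes that hold only multiples of 11 were left out, and none of the 9 genes is among them. Why they hold only such values is not stated, so whether they are raw counts is uncertain. Each comparison of 6 libraries was fitted alone with edgeR 4.0.16 in R 4.3.3 (TMM, filterByExpr, quasi-likelihood test, two-sided), and the difference between regions on all 12. P-values were adjusted over all genes tested by Benjamini and Hochberg, and a gene was called at an adjusted p below 0.05. CPM shown are scaled by TMM over all 12 libraries, and a floor of 3 counts lay at 0.149 to 0.206 CPM on that scale, which covers counting error only. DESeq2 1.42.0, limma-voom (limma 3.58.1) and other settings were alternatives, and the scripts were tested on simulated counts. The members, lists and tests were chosen with earlier results of these data known. Named are all 9 genes, from each other oligodendrocyte list up to 4 genes of smallest p per comparison with Sox10, Myrf, Olig2, Pdgfra, Enpp6, Gpr17 and Bcas1, and the 8 genes most alike in deviation. Some items of these lists are not reported here.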

Additional observations from a re-analysis of the deposited data

How the results depend on the processing

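In both regional comparisons 9 of 9 genes were called under every setting tried. In prefrontal cortex the count of 2 genes called after 6-OHDA became 1 with DESeq2, 1 with limma-voom, 1 with the multiples of 11 kept and 0 with all 12 libraries in one fit, and it was 1 to 3 with single libraries left out. The call lost was that of Mbp, and in the fit of 12 libraries also that of Trf. Calls by edgeR were also gained in cortex. Without control library 1 Mobp was called lower (-0.37, adjusted p = 0.0263). Without control library 3 Hapln2 was called higher (0.57, adjusted p = 0.0325), while the call of Mbp was lost. In striatum the count of 0 became 2 with DESeq2, 1 with limma-voom and 2 with all 12 libraries. The median difference between regions became 0.074 with limma-voom, and 0.21 to 0.54 with single libraries left out. Enpp2 turned to -0.41 (adjusted p = 0.00100) in the control regional comparison without control striatal library 2, in a range of -0.41 to 0.88 with single libraries left out. That library had the highest sum of choroid plexus and ependymal markers, 2155 CPM. The causes were not tested.

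Counts over all genes moved more. In cortex 803 genes became 30 with all 12 libraries, and 195 to 1010 with a library left out. In striatum 4 became 529 with DESeq2, 312 with limma-voom, 1040 with all 12 libraries, 55 without the 2 libraries that stood apart, and 0 with the multiples kept. The 12 genes of the difference between regions became 116 with DESeq2, 86 with limma-voom, 5 with the multiples kept and 101 without those 2 libraries, and 0 to 172 with a library left out. Libraries of different groups with equal replicate numbers had correlations of deviations of -0.11 to 0.11. In controls the mean deviations of the 9 genes rose in the same order in both regions. They were -0.22, -0.03 and 0.25 in cortex and -0.14, -0.09 and 0.23 in striatum for numbers 1, 2 and 3. After 6-OHDA the order differed, with 0.11, -0.18 and 0.07 in cortex and -0.03, 0.34 and -0.31 in striatum. Whether libraries with equal numbers come from one mouse was not tested. With the replicate block the members called stayed at 2 in cortex, 0 in striatum, 0 for the difference and 9 in each regional comparison, with medians of 0.0020, 0.31, 0.39, 1.09 and 1.47, in controls for the fourth and after 6-OHDA for the fifth. The genes called with the block were 634, 0, 6, 5590 and 5853.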

Other observations

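The genes tested next to Trf on chromosome 9 were read after its values were seen. Slco2a1, Rab6b and Srprb on one side and Topbp1, Cdv3 and Bfsp2 on the other had log2 fold changes of -2.23 to 0.12 after 6-OHDA in striatum and -0.46 to 0.04 in prefrontal cortex, and edgeR called none of them.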
